A study of Mus musculus with 4 samples.

Results

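The Bcl2 family sets whether a T cell lives or dies by the mitochondrial route, and 10 of its genes were followed here in splenic CD4+ T cells of mice labelled WT or *Satb1* conditional knockout. The genes were *Bcl2*, *Mcl1*, *Bcl2l1*, *Bcl2l11*, *Bax*, *Bak1*, *Bid*, *Bad*, *Bbc3* and *Pmaip1*, found by gene symbol, and all 10 were present among the 55367 gene symbols of each table. Every one of them also passed the filter on low counts, which 12403 genes passed. Counts came from 4 RNA-seq libraries of spleen CD4+ T cells of C57BL/6 mice, 2 labelled WT and 2 labelled *Satb1* conditional knockout (cKO). The labels call the control animals WT and give no further allele, no age and no sex. For the cKO they name the conditional knockout alone, and the series text pairs *Satb1* F/F with ThPOK-cre or E8I-cre. In the study, deletion by *Thpok-cre* spares early thymocytes and reaches all CD4+ T cells, with Treg cells among them. It describes young adult mice of mixed sexes.

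The family works through a short helix called BH3. The guardians BCL2, MCL1 and BCL-XL, the product of *Bcl2l1*, hold a groove that binds this helix and keep cells alive. The effectors BAX and BAK, the product of *Bak1*, open the outer mitochondrial membrane once they are free of the guardians. The BH3-only proteins BIM (*Bcl2l11*), BID, BAD, PUMA (*Bbc3*) and NOXA (*Pmaip1*) fill the groove of the guardians or push the effectors open. In resting T cells, signals of interleukin 7 hold up BCL2, MCL1 is needed for survival at every stage, and BIM is the main brake on cell number.

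The stretch that encodes the BH3 core is what the members share in sequence, so it is shown for 9 of them from the GENCODE M21 transcripts on GRCm38. Each run has 39 bases, read in the direction of the transcript. The 18 capitals run from the codon of the conserved leucine to the codon of the conserved aspartate. The stretch of *Pmaip1* is not printed here.
*Bcl2* (chr1:106712575-106712613, minus strand): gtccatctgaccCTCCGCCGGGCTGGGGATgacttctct
*Mcl1* (chr3:95659424-95659462, plus strand): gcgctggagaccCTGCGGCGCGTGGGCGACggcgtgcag
*Bcl2l1* (chr2:152829697-152829735, minus strand): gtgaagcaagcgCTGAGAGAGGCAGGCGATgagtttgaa
*Bax* (chr7:45465997-45466035, minus strand): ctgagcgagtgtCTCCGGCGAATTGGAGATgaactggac
*Bak1* (chr17:27022531-27022569, minus strand): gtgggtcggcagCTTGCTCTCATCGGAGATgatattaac
*Bcl2l11* (chr2:128147138-128147176, plus strand): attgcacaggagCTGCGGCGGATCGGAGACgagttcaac
*Bid* (chr6:120897289-120897327, minus strand): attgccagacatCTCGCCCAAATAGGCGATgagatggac
*Bad* (chr19:6950780-6950818, plus strand): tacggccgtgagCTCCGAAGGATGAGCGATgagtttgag
*Bbc3* (chr7:16313761-16313799, plus strand): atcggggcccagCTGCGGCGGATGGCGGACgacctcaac
Each stretch lay in a single coding exon. Of the 8 others, *Bbc3* had the most bases in common with *Bcl2l11*, 27 of 39, and 15 of the 18 capitals. *Bcl2* and *Mcl1* each shared 19 of 39 bases with *Bcl2l11*, and *Bcl2l1* shared 20. Of the 18 capitals, *Mcl1* and *Bax* shared 14 each, *Bcl2*, *Bak1* and *Bad* 11 each, and *Bcl2l1* and *Bid* 9 each. The stretch was found in 4 of the 5 coding transcripts annotated for *Bcl2l11*, in 7 of 8 for *Bcl2l1* and in 1 of 3 for *Bbc3*. Coding sequences that do not open with ATG were not searched but stay in these totals, so the stretch may be in more. The counts are summed over a gene, so its transcripts were not told apart.

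Totals ran from 4495902 to 6555699 gene counts per library. *Cd4* was at 1180 to 1270 CPM, the count per 1e+06 scaled gene counts, in every library and the 9 T cell markers summed to between 6220 and 6690 CPM, with 1 of them, *Thy1*, called lower, from 1180 and 1150 CPM to 749 and 766 CPM (log2 fold change -0.62, SE 0.11, edgeR adjusted p = 0.0169). *Satb1* itself measured 865 CPM in WT 1 and 979 CPM in WT 2, then 941 CPM in cKO 1 and 844 CPM in cKO 2, so gene-level *Satb1* counts do not separate the genotypes, and cKO 1 and cKO 2 mean the libraries labelled so. Other genes did separate them: *Foxp3* rose from 141 and 120 CPM to 404 and 545 CPM (log2 fold change 1.86, SE 0.16, edgeR adjusted p = 0.000447), and *Pdcd1*, which encodes PD-1, from 27.1 and 24.1 CPM to 49.7 and 45.5 CPM (log2 fold change 0.89, SE 0.14, edgeR adjusted p = 0.0113). *Xist* on X was at 5447 and 4235 counts in WT 1 and WT 2 but at 9 and 6 in cKO 1 and cKO 2, and *Ddx3y* on Y ran the other way, with 0 and 0 against 525 and 597. The sex-linked pattern and the genotype cannot be told apart in any value below. Summed markers of B cells and of myeloid cells stood highest in cKO 1, with values given beside the gene they move with. In bulk RNA, fewer cells of a type and less RNA per cell cannot be told apart.

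Between the genotypes 0 of the 10 genes were called by edgeR (adjusted p under 0.05), where 4.30% of all tested genes were called (533 of 12403), 2.35% as higher and 1.95% as lower in cKO. At an unadjusted p under 0.05 there were 2 of the 10, *Bbc3* and *Bcl2l11*, against 19.1% of all tested genes, and DESeq2 called 0 of the 10. In the fitted difference, 8 of the 10 were lower and 2, *Mcl1* and *Bbc3*, were higher in the cKO libraries. The median log2 fold change of the 10 was -0.17, against -0.00155 for all tested genes. For 9 of the 10, all but *Bbc3*, the interval of the fold change at a level of 0.95 lay between a fall to 0.5 of the WT level and a rise to 2 times that level. *Bbc3* stood apart through a single library.

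**Figure D1:**
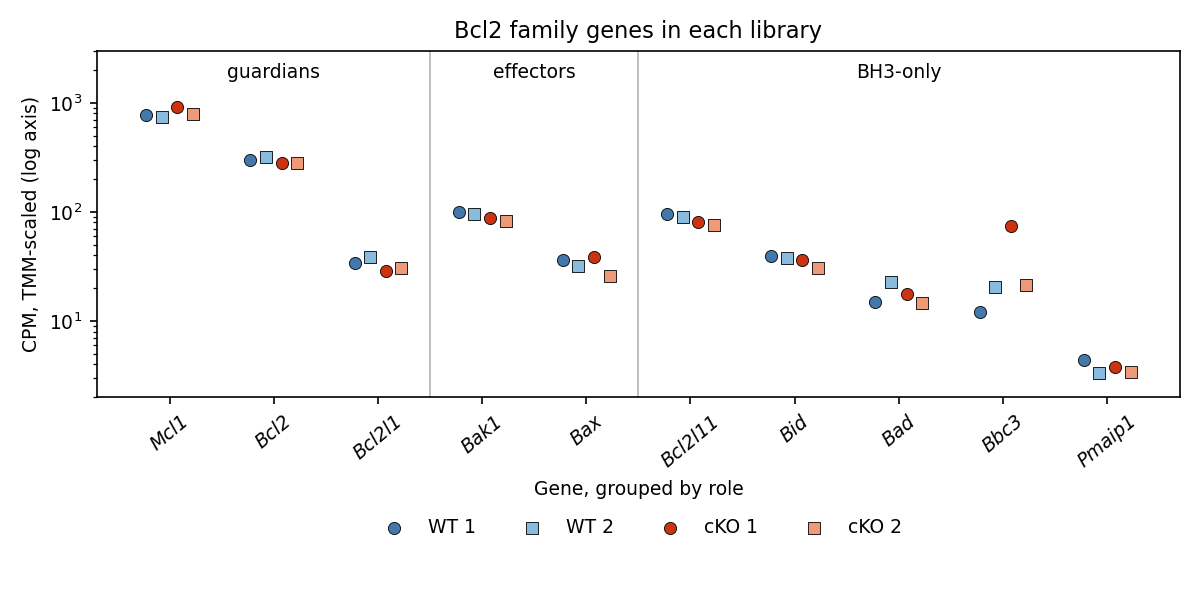
Expression of the 10 Bcl2 family genes in CPM on a log axis, each point a library (WT 1 and WT 2 in blue, cKO 1 and cKO 2 in red), with the genes grouped by role. The points of *Bbc3* lie furthest apart, since cKO 1 stands at 73.8 CPM and the other 3 libraries lie between 12 and 21.2 CPM.

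Among the guardians, *Mcl1* was the most highly expressed and the only one that was higher in the cKO libraries. *Mcl1* (chromosome 3, 95658788 to 95663176, plus strand) measured 769 CPM in WT 1 and 734 CPM in WT 2, then 906 CPM in cKO 1 and 788 CPM in cKO 2. Both cKO libraries lay above both WT libraries, with cKO 1 furthest away. In edgeR this was a log2 fold change of 0.17 (SE 0.12, adjusted p = 0.471), with a fold interval of 0.939 to 1.35. The means were 751 ± 24.4 CPM (SD, n = 2) and 847 ± 83.3 CPM (SD, n = 2), and the gap between cKO 1 and cKO 2 was wider than the gap between the means. Without cKO 2, *Mcl1* was called, at a log2 fold change of 0.27 and an edgeR adjusted p of 0.0345. Over all alternatives its adjusted p ran from 0.0345 to 0.922.

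*Bcl2* (chromosome 1, 106538178 to 106714274, minus strand), the founding guardian, measured 297 CPM in WT 1 and 321 CPM in WT 2, then 280 CPM in cKO 1 and 278 CPM in cKO 2. Both cKO libraries were below both WT libraries, and they were nearly equal to each other. edgeR put the log2 fold change at -0.15 (SE 0.10, adjusted p = 0.453) and the fold between 0.775 and 1.05. A fall of *Bcl2* to under 0.775 of its WT level thus lay outside the interval. Of its exonic bases, 6.09% are shared with an antisense gene.

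*Bcl2l1* (chromosome 2, 152780668 to 152831728, minus strand), which encodes the guardian that activated T cells raise, was lower in both cKO libraries as well. It measured 34.1 CPM in WT 1 and 38.6 CPM in WT 2, then 28.5 CPM in cKO 1 and 30.5 CPM in cKO 2. Its log2 fold change of -0.30 was the lowest of the 10 genes (SE 0.14, edgeR adjusted p = 0.304), and its fold interval was 0.649 to 1.02. The groups did not overlap, but the difference did not pass the threshold. In all fits with a library left out it stayed between -0.38 and -0.21.

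The effectors differed in how well their libraries matched. *Bak1* (chromosome 17, 27019810 to 27029009, minus strand) measured 99.9 CPM in WT 1 and 96.2 CPM in WT 2, then 87.7 CPM in cKO 1 and 81.7 CPM in cKO 2, with no overlap. Its log2 fold change of -0.21 (SE 0.11, edgeR adjusted p = 0.325) had a fold interval of 0.731 to 1.02. Its exons share 25.5% of their bases with *Ggnbp1* on the opposite strand, and no source used here says whether counting was by strand, so reads of the pair may be mixed or lost.

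*Bax* (chromosome 7, 45461697 to 45466898, minus strand) measured 36.1 CPM in WT 1 and 31.7 CPM in WT 2, then 38.9 CPM in cKO 1 and 25.6 CPM in cKO 2. The cKO libraries were thus the highest and the lowest of the 4, and the groups overlapped. edgeR gave a log2 fold change of -0.07 (SE 0.20, adjusted p = 0.888), and the fold interval, 0.695 to 1.30, spans both directions. Its sign turned when WT 1 or cKO 2 was left out, to 0.04 and 0.19. Of its exonic bases, 12.2% are shared with *Gm45808* on the same strand.

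Of the BH3-only genes, *Bcl2l11* and *Bid* were lower in both cKO libraries than in both WT libraries. *Bcl2l11* (chromosome 2, 128126038 to 128162547, plus strand) measured 95.3 CPM in WT 1 and 90.4 CPM in WT 2, then 80.4 CPM in cKO 1 and 75.8 CPM in cKO 2. Replicates lay close, with means of 92.8 ± 3.52 CPM (SD, n = 2) and 78.1 ± 3.31 CPM (SD, n = 2), so the gap was larger than the spread between replicates. Its log2 fold change came to -0.25 (SE 0.11), with a fold interval of 0.710 to 0.995. Its unadjusted p was 0.0453 in the edgeR test and its adjusted p = 0.251, which did not pass. In the fits that left out a library the value ran from -0.30 to -0.20, and over all alternatives the adjusted p ran from 0.132 to 0.810.

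*Bid* (chromosome 6, 120891930 to 120916853, minus strand), whose product links death receptors to mitochondria after caspase cleavage, measured 39.1 CPM in WT 1 and 38.1 CPM in WT 2, then 35.9 CPM in cKO 1 and 30.7 CPM in cKO 2. Its groups did not overlap, and edgeR gave a log2 fold change of -0.21 (SE 0.14, adjusted p = 0.460) and a fold interval of 0.690 to 1.08. Its exons share 17.7% of their bases with *Bcl2l13* on the opposite strand, itself a relative of the family.

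*Bad* and *Pmaip1* had low counts and wide intervals. *Bad* (chromosome 19, 6941861 to 6951899, plus strand), which encodes a sensor held inactive by growth factor signals, measured 14.8 CPM in WT 1 and 22.8 CPM in WT 2, then 17.5 CPM in cKO 1 and 14.6 CPM in cKO 2. The WT libraries were further apart than the group means, and the groups overlapped. A log2 fold change of -0.20 (SE 0.24, edgeR adjusted p = 0.715) left a fold interval of 0.594 to 1.28. The value turned to 0.12 without WT 2. *Bad* shares 20.5% of its exonic bases with *Gpr137* on the opposite strand.

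*Pmaip1* (chromosome 18, 66458533 to 66465565, plus strand), which encodes the partner that drives MCL1 to its breakdown, was read 29 and 15 times in WT 1 and WT 2 and 20 and 16 times in cKO 1 and cKO 2. That is 4.42 and 3.35 CPM against 3.79 and 3.39 CPM, and the exact Poisson interval of WT 2 alone ran from 1.87 to 5.52 CPM. The groups overlapped. edgeR placed it at a log2 fold change of -0.13 (SE 0.36, adjusted p = 0.887), with a fold interval of 0.519 to 1.61.

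*Bbc3* (chromosome 7, 16308393 to 16318205, plus strand) showed the widest difference of the family. PUMA, its product, is a BH3-only killer that p53 and FOXO factors are known to induce. The libraries WT 1 and WT 2 held 79 and 93 counts of it, while cKO 1 held 389 and cKO 2 held 100, or 12 and 20.7 CPM against 73.8 and 21.2 CPM. The library cKO 1 was 3.43-fold above the highest of the other 3, on CPM with an offset of 0.5, whereas cKO 2 was level with WT 2. The exact Poisson intervals were 66.7 to 81.5 CPM in cKO 1, 17.2 to 25.7 CPM in cKO 2, 16.7 to 25.4 CPM in WT 2 and 9.53 to 15 CPM in WT 1. Counting error thus does not span the gap between cKO 1 and cKO 2. These intervals cover counting error only.

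Over all 4 libraries edgeR gave *Bbc3* a log2 fold change of 1.58 (SE 0.50, adjusted p = 0.127) and a fold interval of 1.36 to 6.60. The means were 16.4 ± 6.16 CPM (SD, n = 2) in WT and 47.5 ± 37.2 CPM (SD, n = 2) in cKO, so the difference did not exceed the spread between the cKO libraries. Left without cKO 1, *Bbc3* had a log2 fold change of 0.41 and an edgeR adjusted p of 0.398. Without cKO 2 it was 2.22 with an adjusted p of 8.88e-08, and without WT 1 it was 1.21 with an adjusted p of 0.00366. DESeq2 gave 1.54 and an adjusted p of 0.594, the highest over all alternatives, whose range began at 6.66e-16 without the low-count filter. With the replicate number as a block the gene was called, at 1.46 and 0.00632. Whether *Bbc3* was called thus turned on these settings and on which libraries entered, and its size on cKO 1.

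**Figure D2:**
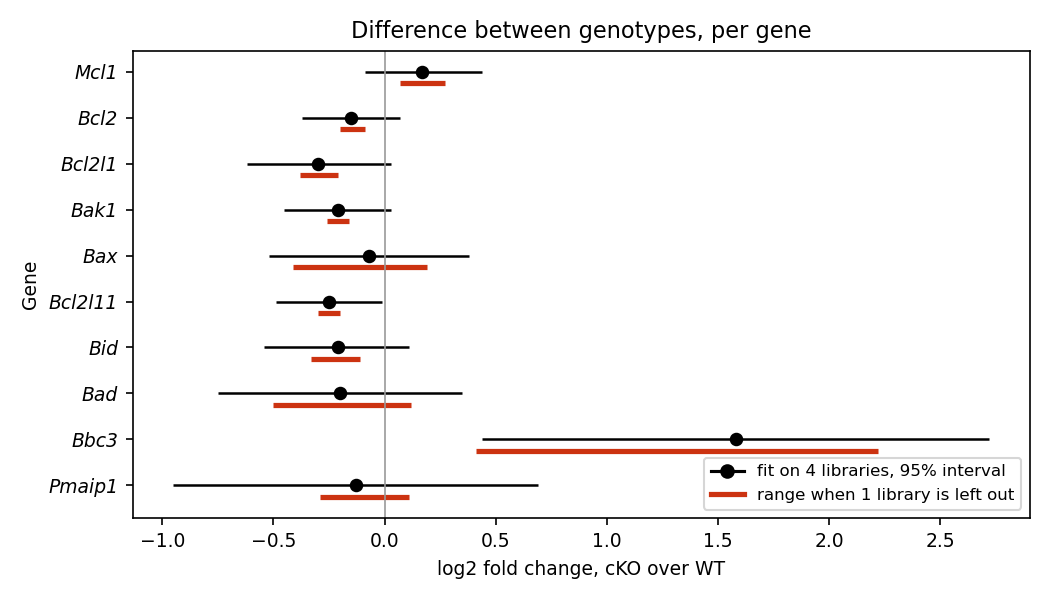
Log2 fold change of each gene, cKO over WT, with the edgeR interval at a level of 0.95 (black) and the range of values when 1 library at a time was left out (red). *Bbc3* ranges from 0.41 to 2.22 when a library is left out, and the intervals of the other 9 genes lie between -1 and 1, widest for *Pmaip1* at -0.95 to 0.69.

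The genes around *Bbc3* were read in the same libraries. Within 150000 bases of it 7 other genes were tested, and edgeR called 0 of them, DESeq2 0, with 0 at an unadjusted p under 0.05, against the 4.30% and 19.1% of all tested genes, shares at which 7 genes would give few or none. *Ccdc9*, the next tested gene before *Bbc3*, measured 74.3 CPM in WT 1 and 76.5 CPM in WT 2, then 80.3 CPM in cKO 1 and 70.5 CPM in cKO 2. *Sae1*, the next tested gene after it, had 79.8 and 84.8 CPM against 102 and 76.6 CPM. Neither gene had a library far from the other 3.

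**Figure D3:**
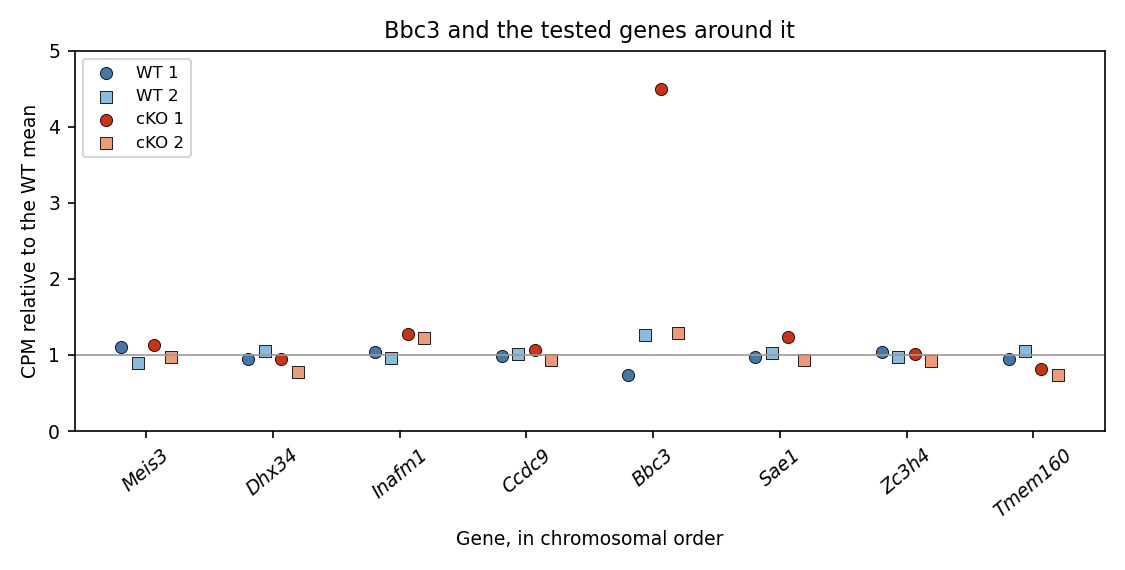
CPM relative to the WT mean for *Bbc3* and the 7 tested genes within 150000 bases of it, in chromosomal order, each point a library. Only *Bbc3* has a point far from 1, that of cKO 1, while cKO 2 lies beside WT 2.

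Since the value of *Bbc3* in cKO 1 is the pattern that stands apart, the bases before a pair of its 3 annotated starts are shown from RefSeq (GRCm38.p6), each 250 bases long and ending at the base before the start. Capitals mark matches to motifs that were searched on both strands: the GC box GGGCGG, the CCAAT box CCAAT, the TATA box TATAAA, the E-box CACGTG, the FOXO motif TGTTTAC and the p53 half-site by its name. Adjoining capitals can be motifs that overlap.
*Bbc3* (chr7:16309333-16309582, plus strand): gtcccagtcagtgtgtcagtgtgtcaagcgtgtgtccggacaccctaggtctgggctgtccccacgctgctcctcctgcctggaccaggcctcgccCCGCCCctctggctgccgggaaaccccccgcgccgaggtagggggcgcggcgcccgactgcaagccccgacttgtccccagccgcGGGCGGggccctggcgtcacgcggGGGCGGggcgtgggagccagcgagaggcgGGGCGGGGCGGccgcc
*Bbc3* (chr7:16310011-16310260, plus strand): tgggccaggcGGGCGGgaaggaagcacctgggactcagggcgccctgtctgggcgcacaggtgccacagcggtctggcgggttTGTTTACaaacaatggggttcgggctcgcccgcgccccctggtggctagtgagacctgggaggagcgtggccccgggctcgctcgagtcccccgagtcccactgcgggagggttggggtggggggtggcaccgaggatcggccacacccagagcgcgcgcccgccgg
The first window held 5 matches to the GC box and no other motif. The second held 1 match to the GC box and 1 to the FOXO motif. The remaining window overlaps the second and held 7 matches to the GC box, 1 to the CCAAT box and 1 to the E-box. Of 32851 promoter windows of this length, 3.17% held the FOXO letters and 32.7% the GC box. Among the members, windows were found for 9 genes, 15 windows in all, and the FOXO letters stood in 2 of them, of *Bbc3* and *Bcl2l11*. The GC box was in 10 of the 15, the CCAAT box in 4, the E-box in 2, of *Bax* and *Bbc3*, the p53 half-site in 1, of *Bax*, and the TATA box in 0. Over all windows, 33.8% held the CCAAT box, 6.02% the E-box, 7.13% the p53 half-site and 12.4% the TATA box. Some of the 15 windows lie in exons of the gene itself. The *Bak1* window and some *Bcl2l1* windows do so over all 250 bases, a *Bad* window over 197 and the *Bid* window over 29. The shares over all windows are therefore a rough measure beside these counts. These matches describe letters in a window and are not sites of binding.

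Separation of the libraries by genotype was common across all tested genes. Both cKO libraries were below both WT libraries for 5 of the 10 members, *Bcl2*, *Bcl2l1*, *Bak1*, *Bcl2l11* and *Bid*, and this held for 25.4% of all tested genes. The groups did not overlap in either direction for 7 of the 10, against 50.3% of all tested genes. Between replicates, 6 of the 10 differed by less than 0.3 on the log2 scale in both genotypes. For *Bbc3* the log2 ratio was 1.80 for cKO 1 over cKO 2 and -0.79 for WT 1 over WT 2.

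Levels of the genes were compared per length, as CPM per kilobase of annotated exon. By this measure *Mcl1* led, with 225 and 215 for WT 1 and WT 2 and 265 and 231 for cKO 1 and cKO 2, above 98.9% of tested genes. *Bak1* came next at 33.9 to 41.5 and *Bcl2* after it at 30.3 to 35.1. *Bak1* was above *Bcl2* in all 4 libraries, but their ranges overlapped. *Bax* followed at 16.2 to 24.7, below *Bcl2* in every library.

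The lower part of the order was crowded. *Bcl2l11* lay at 9.44 to 11.9 CPM per kilobase and *Bid* at 8.64 to 11, and they overlapped, as did *Bcl2l1*, below *Bid* at 6.21 to 8.42, and *Bad* at 5.71 to 8.90. *Bbc3* had no firm place: it was at 5.66, 9.77 and 9.96 in WT 1, WT 2 and cKO 2 and at 34.7 in cKO 1, where it passed *Bcl2* at 30.6. *Pmaip1* was last in every library at 1.22 to 1.62, and 11.1% of tested genes were lower. Exon overlaps with other genes and unused annotated exons can shift such levels.

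As a share of the summed CPM per kilobase of the 10 genes, *Mcl1* took 61.6% of WT 1, 59.6% of WT 2, 62.2% of cKO 1 and 65.4% of cKO 2. The guardians together took 72.5%, 71.7%, 70.9% and 75.9% in WT 1, WT 2, cKO 1 and cKO 2. The effectors took a smaller share in both cKO libraries than in both WT libraries, at 14.3% and 14.2% against 17.6% and 16.7%. BH3-only genes took 9.85% and 11.6% in the WT libraries, 14.8% in cKO 1 and 9.92% in cKO 2. *Bbc3* alone took 1.55% and 2.71% in WT 1 and WT 2, 8.16% in cKO 1 and 2.82% in cKO 2. Shares of a whole are tied to each other.

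**Figure D4:**
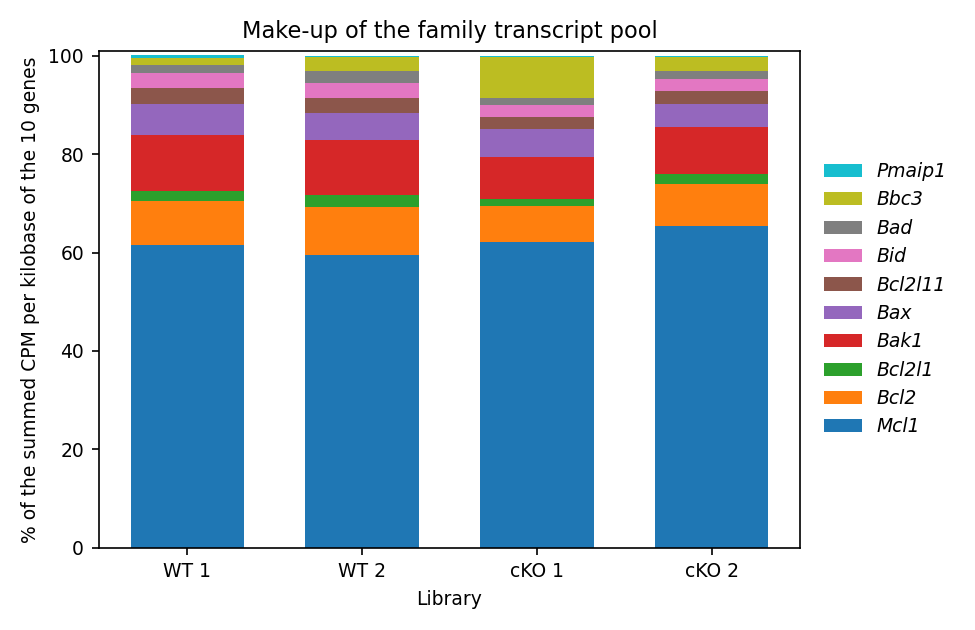
Share of each gene in the summed CPM per kilobase of the 10 Bcl2 family genes, 1 stacked bar per library, as a percentage. *Mcl1* fills most of each bar, from 59.6% to 65.4%, and *Bbc3* is widest in cKO 1 at 8.16%.

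Ratios within a library do not depend on how libraries were scaled, so they were used to ask whether the balance of life and death genes moved. The ratio of *Bcl2* to *Bcl2l11*, per kilobase, was 2.73 and 3.12 for WT 1 and WT 2 and 3.05 and 3.21 for cKO 1 and cKO 2. The groups overlapped, with a difference of 0.10 on the log2 scale and p = 0.667 in an exact two-sided permutation test. With 2 libraries against 2 the smallest p this test can give is 0.333. Guardians over BH3-only genes came to 7.36 and 6.17 in the WT libraries and to 4.78 in cKO 1 and 7.65 in cKO 2, the extremes of the 4. The difference was -0.16 on the log2 scale with an exact permutation p = 1. It was 0.03 on CPM not divided by length and, with each library left out in turn, between -0.49 (without cKO 2) and 0.18 (without cKO 1), so its sign is not set. *Bax* over *Bak1* was 0.552 and 0.503 in WT 1 and WT 2 but 0.678 and 0.479 in cKO 1 and cKO 2, for a log2 difference of 0.11 with an exact permutation p = 1. This too changed sign, from -0.14 without cKO 1 to 0.36 without cKO 2, and the difference in *Bcl2* over *Bcl2l11* ran from 0.01 without WT 1 to 0.20 without WT 2.

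The genes that act around the family were taken from 6 lists of 88 genes in all that are not members, of which 76 were tested. In the edgeR test 5 of the 76 were called, 2 higher and 3 lower, or 6.58% against the 4.30% of all tested genes. Their median log2 fold change was 0.09. Without genes on X and Y, 2 were called, *Il7r* and *Birc5*. The X-linked *Pim2* left the test. *Ripk3* and *Il4ra* kept their log2 fold changes of -0.60 and 0.51 and moved just over the threshold, to edgeR adjusted p of 0.0513 and 0.0512. The calls were spread over the lists of survival cytokine inputs (3 of 17), apoptosome and caspases (1 of 20) and death receptor pathway (1 of 12). edgeR and DESeq2 called 0 among other Bcl2 relatives (7 tested), 0 among p53 inputs and targets (10 tested) and 0 among genes of MCL1 and BIM protein turnover (11 tested). At an unadjusted p under 0.05 these held 2, 1 and 1 genes, against 8 among survival cytokine inputs, 6 in the death receptor pathway, 2 among apoptosome and caspases and 19.1% of all tested genes. Of these lists, *Bcl2l2*, a guardian relative at 0.669 to 4.23 CPM, and *Trim17*, a ligase acting on MCL1 with 8 and 0 counts in WT 1 and WT 2 and 17 and 14 in cKO 1 and cKO 2, had the highest fitted differences on few counts.

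*Il7r*, the receptor chain for interleukin 7 that sustains *Bcl2* in resting T cells, rose from 364 and 484 CPM in WT 1 and WT 2 to 1050 and 694 CPM in cKO 1 and cKO 2. Its log2 fold change came to 1.04 (SE 0.20, edgeR adjusted p = 0.0257), whereas DESeq2 gave an adjusted p of 0.0772. *Bcl2* itself stood at 0.902 of its WT level in the same libraries. *Il4ra*, the receptor chain for interleukin 4, rose from 329 and 351 CPM to 532 and 438 CPM, a log2 fold change of 0.51 (SE 0.12, edgeR adjusted p = 0.0490). *Pim2*, a kinase that signals survival and phosphorylates BAD, fell from 67.3 and 88.3 CPM to 52.2 and 45.3 CPM, a log2 fold change of -0.67 (SE 0.16, edgeR adjusted p = 0.04997), and is X-linked. *Il4ra* and *Pim2* lost their calls without WT 2, at adjusted p of 0.307 and 0.409, and *Il4ra* also without WT 1, at 0.256. *Il7r* is also 1 of the 5 naive T cell markers, of which the other 4 were lower in the fit and *Ccr7* was called (log2 fold change -0.62, SE 0.11, edgeR adjusted p = 0.0199), and the part of naive cells in these values was not tested. *Il7r* kept its call whichever library was left out, at an adjusted p of 0.0497 without WT 2.

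Outside the cytokine inputs, *Birc5*, which encodes the inhibitor of apoptosis survivin and is expressed in dividing cells, fell from 18.6 and 16.5 CPM to 3.61 and 8.25 CPM. The log2 fold change of -1.59 (SE 0.33) had an edgeR adjusted p = 0.0340, and 0.0941 without WT 2. It ran from -2.28 without cKO 2 to -1.09 without cKO 1. Like *Birc5*, the cell division genes *Ccna2* and *Mki67* were lowest in cKO 1 and below both WT libraries in cKO 2. *Ccna2*, the gene of cyclin A2, fell from 39.6 and 38.8 CPM to 9.11 and 21.2 CPM (log2 fold change -1.39, SE 0.30, edgeR adjusted p = 0.0364), and *Mki67*, the gene of the proliferation marker Ki-67, was at 162 and 197 CPM against 35.1 and 97.8 CPM (adjusted p = 0.0602). The part of dividing cells in the value of *Birc5* was not tested. *Ripk3*, a kinase of necroptosis, fell from 46.1 and 40.8 CPM to 29.2 and 28.4 CPM, a log2 fold change of -0.60 (SE 0.14, edgeR adjusted p = 0.0494). That call was lost in DESeq2, at 0.186, and without WT 1 or WT 2, at 0.311 and 0.185. *Ripk3* was the single call of its list of 12 genes, whose median log2 fold change was 0.19. Over these 12 genes the groups did not overlap for 9, with both cKO libraries above both WT libraries for 8 and below for 1. Among all tested genes they did not overlap for 50.3%, with cKO below WT for 25.4%. Other lists held such genes too: 13 of 17 survival cytokine inputs (11 above), 13 of 20 in apoptosome and caspases (7 above), and 59.2% of the 76 genes of all lists. *Tnfrsf1b*, a receptor for TNF, was at 105 and 92.8 CPM against 124 and 136 CPM (log2 fold change 0.39, SE 0.11, edgeR adjusted p = 0.0968), and *Fasl*, the ligand of Fas, at 9.14 and 5.80 CPM against 14.2 and 11.2 CPM (0.74, SE 0.28, adjusted p = 0.200). *Apaf1*, the scaffold of the apoptosome, ran from 47.2 CPM in WT 1 to 59.9 CPM in cKO 2 and was not called.

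**Figure D5:**
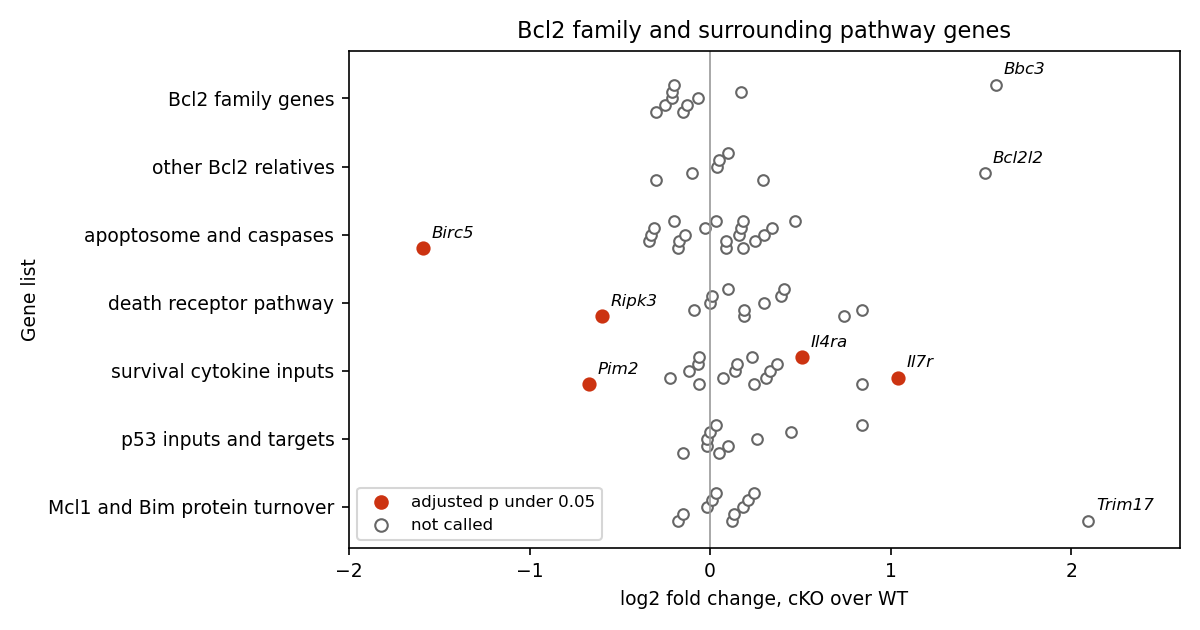
Log2 fold change, cKO over WT, of every tested gene of the Bcl2 family and of the 6 pathway lists, each point a gene, filled where the edgeR adjusted p was under 0.05. The 5 filled points are *Birc5*, *Ripk3*, *Pim2*, *Il4ra* and *Il7r*, and *Bbc3* lies far to the right without a call.

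Genes of p53 and FOXO factors, known inducers of *Bbc3*, and of p53 targets were read in the same libraries, and mRNA levels do not measure the activity of these factors. *Trp53*, the gene of p53, was at 197 and 195 CPM in the WT libraries, 189 in cKO 1 and 163 in cKO 2. *Mdm2*, a p53 target that limits p53, was at 113 and 124 CPM, then 111 in cKO 1 and 126 in cKO 2, and *Cdkn1a* had 6 counts or fewer in each library. *Phlda3*, another p53 target, had 12 counts in cKO 1 and 2 in each of the other 3 libraries, too few to be tested. *Tnfrsf10b*, a death receptor and p53 target, was at 2.89 and 4.02 CPM in WT 1 and WT 2 but at 6.45 and 5.71 CPM in cKO 1 and cKO 2 (log2 fold change 0.84, SE 0.34, edgeR unadjusted p 0.0356, adjusted p = 0.223). Over the 10 tested genes of the p53 list the median log2 fold change was 0.04, from values such as *Sesn2* at 0.45 and *Zmat3* at 0.26 to *Sesn1* at 0.03, *Aen* at -0.02 and *Trp53inp1* at -0.02, and the groups did not overlap for 4 of the 10, against 50.3% of all tested genes. *Foxo3* measured 139 CPM in WT 1 and 129 CPM in WT 2, then 175 CPM in cKO 1 and 156 CPM in cKO 2, with an edgeR adjusted p of 0.162 and its highest value in cKO 1, and *Foxo1* had a log2 fold change of 0.07 (adjusted p = 0.756). *Bmf*, a BH3-only relative, was at 11.4 CPM in WT 1 and 12.9 in cKO 1, and at 4.46 and 4.66 in WT 2 and cKO 2. The *Bcl2a1a*, *Bcl2a1b* and *Bcl2a1d* genes are near-identical copies that share reads, so their counts of 0 to 18 are uncertain.

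Markers of several other cell types differed between the libraries, and the sums for B cells and myeloid cells were highest in cKO 1, as was *Bbc3*. The 8 B cell markers summed to 38.7 and 46.2 CPM in WT 1 and WT 2, 192 in cKO 1 and 77.3 in cKO 2. All 5 that were tested were higher in the fit, 2 of them called, and 4 were above both WT libraries in both cKO libraries. *Cd79b* overlapped, at 5.64 and 6.02 CPM in WT 1 and WT 2, 13.3 in cKO 1 and 4.87 in cKO 2. The 9 myeloid markers summed to 72.6 and 88.3 CPM, 172 in cKO 1 and 106 in cKO 2, with 7 of 8 tested genes higher in the fit and 4 called. *S100a8*, *S100a9* and *Ltf* were at 0 in WT 1, and no B cell marker was at 0 in any library. The 4 NK cell markers summed to 23.6 and 24.8 CPM in WT 1 and WT 2, 5.12 in cKO 1 and 1.69 in cKO 2, with 3 of 3 tested genes lower in the fit and *Gzma* called. The 2 CD8 T cell markers summed to 47.5 and 58.2 CPM, then 34.2 in cKO 1 and 26.7 in cKO 2, and *Cd8b1* was called lower. The groups of *Cd8a* overlapped, at 5.33 and 6.47 CPM against 6.83 and 4.23 CPM (log2 fold change -0.07), so the fall of the sum rests on *Cd8b1*. The 5 erythroid markers summed to 100 and 307 CPM, then 10.1 in cKO 1 and 218 in cKO 2, with wide gaps inside each genotype and no call in edgeR. The 5 Treg markers had their highest sum in cKO 2, with 397 and 317 CPM in the WT libraries, 731 in cKO 1 and 950 in cKO 2. *Foxp3* alone gave 141 and 120 CPM of it in WT 1 and WT 2, 404 in cKO 1 and 545 in cKO 2. All 5 were higher in the fit and 3 were called, while the groups of *Ikzf2* overlapped. The study reports derepression of *Foxp3* in conventional CD4+ T cells without Treg function. This sum therefore need not follow the number of Treg cells. The 10 handling stress genes summed to 876 and 804 CPM in WT 1 and WT 2 against 1290 and 1190 CPM, with 3 of 9 tested genes called higher. These 3 were the heat shock genes *Hspa1b*, *Hsph1* (98.4 and 85.7 CPM against 297 and 319 CPM) and *Dnaja1* (147 and 131 CPM against 287 and 274 CPM). In the fit 6 were higher and 3 lower. *Fos* (log2 fold change -0.50) and *Fosb* (-0.38) lay below both WT libraries in both cKO libraries, and *Egr1* was at -0.01. The part of these cells and of handling in the values of the 10 genes was not tested.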

How the data were processed

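RNA from sorted splenic CD4+ T cells was sequenced as reads of 50 bases, in 2 libraries labelled WT and 2 labelled cKO. The authors aligned the reads to mm10 with HISAT2 (2.1.0) and counted them per gene with HTSeq (0.11.1 in the submitters' processing notes), and deposited raw counts per gene symbol. The gene annotation and strand setting are not given in the sources used here. The 5 summary lines of HTSeq stayed out of library sizes and tests. Of the reads given to genes, to several genes or to none, 59.4% to 64.5% were assigned to no annotated feature. With the strand setting unknown, this share does not show where those reads lay. Totals were 4495902 to 6555699 counts, and both depth and the spread between replicates limit the precision.

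Genes were kept with filterByExpr, scaled with TMM and tested with the quasi-likelihood F test of edgeR 4.0.16 in R 4.3.3, two-sided, on genotype with no covariate, with Benjamini-Hochberg adjustment over 12403 genes. CPM uses TMM-scaled totals. The SE is the absolute log2 fold change divided by the square root of F. Scripts were tested on simulated data. Exonic lengths, overlaps and BH3 stretches were read from GENCODE M21 (GRCm38, the assembly of mm10) and promoters from RefSeq GRCm38.p6. The study describes the replicates as biological and the dots on its graphs as separate mice, while the labels name no animals. WT 1 and WT 2 differed by more than sampling noise (chi-square per degree of freedom 2.83), as did cKO 1 and cKO 2 (6.68).

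The members and gene lists were chosen with earlier results of these data known. All members are named, and of each pathway list the genes called, at most 6 in order of p. *Apaf1*, *Trp53*, *Mdm2*, *Cdkn1a*, *Phlda3*, *Tnfrsf10b*, *Sesn2*, *Zmat3*, *Sesn1*, *Aen*, *Trp53inp1*, *Foxo1*, *Ccna2*, *Mki67*, *Tnfrsf1b*, *Fasl*, *Pdcd1*, *Foxo3*, *Bmf*, *Bcl2l2*, *Trim17*, the *Bcl2a1* genes, *Cd4*, single cell type markers, single handling stress genes, the neighbours of *Bbc3* and the genes high in cKO 1 were chosen after their values were seen. Alternatives, each changing a single choice, were DESeq2 1.42.0, other scalings, filters and depth, no genes on X and Y, a replicate block and leaving out each library.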

Additional observations from a re-analysis of the deposited data

How the results depend on the processing

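The count of genes called, 533, became 1367 without the low-count filter and 1165 with the replicate block. Leaving out a library gave 174 to 1583, the lowest without WT 2, with 1313 without cKO 1 and 1583 without cKO 2. The count of members called, 0, became 1 without the low-count filter and 1 with the replicate block, in both cases *Bbc3*, and leaving out a library gave 0 to 2. The count of pathway genes called, 5, became 9 without the low-count filter, 9 with the replicate block and 2 without genes on X and Y, and leaving out a library gave 1 to 14. Why the counts moved was not tested. Leaving out a library keeps 1 library of a genotype, which is assumed to vary like the other genotype. The replicate numbers name no shared animal, and across genes the deviations of libraries with the same number had a correlation of 0.0643. Of 179 values of named genes under alternatives, 159 kept their direction and their side of the threshold, 10 lost a call and 5 gained one. The sign of 5 uncalled log2 fold changes turned. *Pmaip1* was 0.04 after thinning and -0.29 to 0.11 when a library was left out, *Bax* -0.41 to 0.19 and *Bad* -0.50 to 0.12. *Bax* was positive without WT 1 (0.04) and without cKO 2 (0.19). For the log2 differences of the ratios the replicate block gives by construction the same values, 0.10 for *Bcl2* over *Bcl2l11*, -0.16 for guardians over BH3-only genes and 0.11 for *Bax* over *Bak1*, and so tests nothing. Leaving out a library gave 0.01 to 0.20, -0.49 to 0.18 and -0.14 to 0.36. Low counts widen the intervals of *Pmaip1*, which had 15 to 29 counts a library.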

Other observations

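*Bbc3* was not alone in standing high in cKO 1. Of 12403 tested genes, 54 were over 2-fold above all 3 other libraries in cKO 1, against 12 in cKO 2, 8 in WT 2 and 2 in WT 1, on CPM with an offset of 0.5. *Bbc3* ranked 7 among them at 3.43-fold. Above it were *St6galnac2*, which encodes a sialyltransferase, at 30.4-fold with 900 counts in cKO 1 against 30, 23 and 17 in WT 1, WT 2 and cKO 2, *Irgc1* at 6.37-fold, *Wls*, which encodes the carrier for Wnt secretion, at 5.17-fold, *Pde5a* at 4.43-fold, *H2-Eb1*, an MHC class II gene, at 3.64-fold and *Snhg16* at 3.44-fold. Genes known from B cells and macrophages were also among the 54, including *H2-Aa*, *Cd74*, *Pax5*, *Cd79b*, *Igkc*, *C1qa*, *C1qb*, *Lyz2*, *Cd5l* and *Vcam1*. The part of such cells in the value of *Bbc3* was not tested.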
